A study of Mus musculus with 8 samples.

Results

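Interferon-stimulated genes are switched on when interferon binds its receptors at the cell surface. Type I interferons act through the receptor subunits Ifnar1 and Ifnar2 and a complex that includes Stat2 and Irf9 and binds the interferon-stimulated response element (ISRE) in promoters. Interferon gamma acts through Ifngr1 and Ifngr2, and its target promoters carry gamma-activated sites (GAS). In the liver, hepatocytes, Kupffer cells and endothelial cells are all able to respond, and the induced proteins detect, bind or destroy foreign nucleic acid, tag other proteins with Isg15, or prepare peptides for antigen presentation.

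The members were 41 mouse genes of this response, named from general knowledge of the pathway. A member was measured by the probe sets whose platform annotation names it as the only gene. On the tumour array 39 of the 41 had such a probe set, out of 18194 genes, and 37 had one on both array types. Xaf1 and Herc6 were measured in the tumours only. Isg15 and Ifi44 were not analysed here, because no probe set carried either as its only symbol.

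The signals came from 8 Affymetrix arrays of p53-/- mice on a C57BL/6J background, in a study titled for telomere dysfunction. For the tumours, 3 arrays each held 1 hepatocellular carcinoma (HCC) of an mTERC-, HBs transgenic mouse, and 3 arrays each held 1 HCC of an mTERC+, HBs transgenic mouse, with all mice aged 12 to 15 months. mTERC is the RNA component of telomerase. All 6 tumours thus shared the loss of p53 and the HBs transgene, whose promoter is not given in the sources used here, nor is the telomerase-deficient generation. For the virus comparison, 1 array held liver RNA pooled from 3 p53-/- mice given an adenovirus (Ad) for TRF2DBDM, and the other held a pool of 3 p53-/- mice given Ad GFP, both taken 48 hours after intravenous injection. TRF2DBDM is a truncated, dominant-negative form of the telomere-binding protein TRF2. Both pools had therefore received a virus, and adenoviral vectors are known to elicit interferon responses in mouse liver. No uninfected liver was used here. Every array is labelled as hepatocytes by tissue, whereas the design text speaks of RNA from liver and from tumours. Summed over 11 hepatocyte markers, the signal was 67595 in the TRF2DBDM pool and 42243 in the GFP pool.

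The values are MAS5 signals, a linear fluorescence summary of each probe set in arbitrary units. Log2 differences and ratios were taken on log2(signal + 32). Signals of different genes come from different probes and are not set against each other. One tumour array stood apart. On mTERC- tumour 2 the signal of the Gapdh control at its 3' end was 13.8 times that at its 5' end, a ratio that rises when RNA is degraded or incompletely copied, and in the other 5 tumours it lay between 0.983 and 1.18. The median signal of that array was 75.1, with 54.5 to 59.4 in the other 5 tumours. In the TRF2DBDM and GFP pools the Gapdh ratio was 0.841 and 0.793, and the median signal 52.5 and 46.1. A probe set for 18S ribosomal RNA read 319 in mTERC- tumour 2, 349 in mTERC- tumour 3 and 11010 to 27810 in the other tumours. The sex of the mice is not in the labels. Xist, an RNA of X inactivation, read 920.5 in mTERC- tumour 1 and 9.6 to 68.4 in the other 5 tumours. In the TRF2DBDM and GFP pools it read 3607 and 2307.6. The Y-linked gene Eif2s3y read 52.8 to 219.8 in the tumours, with 70.5 in mTERC- tumour 1, and 2.3 and 0.7 in those pools. Sex was not assigned from these signals, and its part in the comparisons cannot be told apart.

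The promoters of these genes are shown first because the ISRE is the shared target of type I interferon signalling. In the RefSeq promoter table of GRCm38.p6, 31 of the 41 members had an entry, covering 250 bases before to 50 bases after a gene start. The ISRE core GAAANNGAAA, searched on both strands, was found in 15 of the 31 members (48.4%), against 1079 of all 27025 genes of the table (3.99%). The GAS core TTCNNNGAA reads the same on both strands and was found in 11 of 31 members (35.5%), against 9.55% of all genes. The 2 motifs were counted independently, and a promoter may hold both. A match is a description of the letters in this window, not evidence of binding.

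Ifit1 is shown over the 250 bases before its start (chr19:34640639-34640888, plus strand), because it carries 2 separate ISRE cores. It encodes a protein that binds foreign RNA ends. The capitals mark the ISRE core, here in its reverse complement.
Ifit1: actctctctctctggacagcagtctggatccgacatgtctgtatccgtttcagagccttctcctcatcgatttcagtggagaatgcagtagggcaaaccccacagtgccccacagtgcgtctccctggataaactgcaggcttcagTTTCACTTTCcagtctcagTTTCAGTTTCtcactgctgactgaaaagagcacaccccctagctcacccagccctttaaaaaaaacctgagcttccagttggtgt

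Windows of 30 bases around 1 ISRE core are given for 7 other members, 5 with a lower signal in the TRF2DBDM pool (Igtp, Trim30a, Ifit3, Oas1a, Stat2), 1 with a higher signal there (Bst2) and 1 with the largest excess in mTERC+ tumour 2 (Gbp2). Each is written on the strand of its gene, 5′ to 3′, and the capitals mark the core in either orientation.
Igtp, chr11:58199512-58199541, plus strand, 34 bases before the start: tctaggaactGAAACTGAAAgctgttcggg
Trim30a, chr7:104465210-104465239, minus strand, 36 bases before the start: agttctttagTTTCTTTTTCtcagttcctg
Ifit3, chr19:34583397-34583426, plus strand, 122 bases before the start: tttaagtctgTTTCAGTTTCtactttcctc
Oas1a, chr5:120907520-120907549, minus strand, 14 bases before the start: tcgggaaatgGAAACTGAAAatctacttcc
Stat2, chr10:128270266-128270295, plus strand, 222 bases before the start: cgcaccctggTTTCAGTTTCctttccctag
Bst2, chr8:71537577-71537606, minus strand, 124 bases before the start: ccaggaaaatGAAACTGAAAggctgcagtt
Gbp2, chr3:142620594-142620623, plus strand, 59 bases before the start: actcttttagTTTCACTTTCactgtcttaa

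The first comparison asked whether interferon-stimulated genes differed by telomerase status of the carcinomas. No member passed the test. After the level filter 38 of the 39 measured members were tested, and Mx2 was below it, at signals of 5.3, 11.4 and 11.4 in mTERC- tumours, against 12.5, 59.4 and 5.9 in mTERC+ tumours. At a Benjamini-Hochberg adjusted p below 0.05 in limma, 0 of the 38 were called, beside 1 of 11980 genes (0.00835%), and the smallest adjusted p of a member was 0.953. At an unadjusted p below 0.05, 2 of the 38 members passed (5.26%), beside 5.04% of all genes. The groups did not overlap for 4 members (10.5%), beside 10.1% of all genes. Both of these shares were near those of all genes tested.

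The mean was lower in mTERC- tumours for 26 of the 38 members (68.4%), beside 48.6% of all genes, with a median log2 difference of -0.16 against 0.02 over all genes. That tilt rested on particular tumours. Without mTERC+ tumour 2 the median was 0.10 and 14 of 37 members were lower, and without mTERC- tumour 2 the median was -0.02 and 20 of 38 were lower. Without mTERC+ tumour 1 the median was -0.49 and 31 of 38 were lower.

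The OAS enzymes make the second messenger that activates RNase L, and Oasl1 and Oasl2 belong to the same family. All 5 had a lower mean in mTERC- tumours, beside 48.6% of all genes, with a median log2 difference of -0.42, and none was called. For Oas3 the log2 difference was only -0.0009, with 26, 260.1 and 164.3 in mTERC+ tumours. Oas2 (Entrez Gene 246728) had signals of 48.8, 46.2 and 120.5 in mTERC- tumours, against 129.7, 132.7 and 146.1 in mTERC+ tumours, without overlap. Its log2 difference was -0.77 (SE 0.45, adjusted p = 0.953 in limma). Oas1a, an active synthetase, had 919.6, 446.6 and 862.4 in mTERC- tumours, against 1050.7, 1698.1 and 486.3 in mTERC+ tumours, and these ranges overlapped. Oasl2 had 165.9, 96.8 and 328.8 in mTERC- tumours and 196.1, 579.6 and 141.5 in mTERC+ tumours. Its lowest value was in mTERC- tumour 2 and its highest in mTERC+ tumour 2.

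The IFIT proteins bind viral RNA, and the group with them here acts on RNA or senses it. Their median log2 difference was -0.08, with 3 of 7 higher in mTERC- tumours. Isg20 (Entrez Gene 57444), an exonuclease that degrades RNA, had 315.8, 18.3 and 148.9 in mTERC- tumours, against 244, 249.6 and 313 in mTERC+ tumours. Its log2 difference, -1.03 (SE 0.56; adjusted p = 0.953 in limma), came with a value of 18.3 on the array with the high Gapdh ratio. Ifit3 had 587.3, 169.5 and 360 in mTERC- tumours, against 264.9, 909.4 and 1274.3 in mTERC+ tumours, for a log2 difference of -0.97 (SE 0.53). Ifit1 ranged from 223.3 to 432.6 in mTERC- tumours and from 176.8 to 551.1 in mTERC+ tumours, so the first range lay inside the other.

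Among the other antiviral effectors, Mx1 (Entrez Gene 17857) ran opposite to most members. Mx1 encodes a GTPase that blocks influenza virus, and C57BL/6 mice are known to carry a defective allele of it. Its signals were 138.3, 127.5 and 253.5 in mTERC- tumours, against 41.9, 103.5 and 7.4 in mTERC+ tumours, so every mTERC- tumour lay above every mTERC+ tumour. The means were 173 ± 69.8 in mTERC- tumours and 50.9 ± 48.7 in mTERC+ tumours (n = 3 each, error as SD). The log2 difference was 1.43 (SE 0.53), with an unadjusted p of 0.016 and an adjusted p of 0.953 in limma. Rsad2 (Entrez Gene 58185), or viperin, makes a nucleotide that ends viral RNA chains. It had 425.1, 412.5 and 444.2 in mTERC- tumours, against 618, 911.9 and 569.2 in mTERC+ tumours, without overlap and with a narrow spread in the mTERC- group (log2 difference -0.64, SE 0.34, adjusted p = 0.953 in limma). Other Rsad2 probe sets gave -0.78 and -0.49, and both overlapped between the groups. In mTERC- tumours they had 163.4, 32 and 55.4, and 97.5, 102.3 and 167.6, without that narrow spread. Bst2 (Entrez Gene 69550), or tetherin, holds budding virus at the cell surface. It had 2979.8, 1697.2 and 1699.2 in mTERC- tumours, against 6105.2, 4937.1 and 1968 in mTERC+ tumours, with mTERC+ tumour 3 inside the mTERC- range (log2 difference -0.92, SE 0.42, unadjusted p = 0.0448, adjusted p = 0.953 in limma). Xaf1, which binds an inhibitor of apoptosis, ranged from 544 to 680.8 in mTERC- tumours and from 346.4 to 746 in mTERC+ tumours.

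The interferon-inducible GTPases all had a lower mean in mTERC- tumours, 5 of 5, beside 48.6% of all genes, with a median of -0.26 and no call. Gbp3 (Entrez Gene 55932), a guanylate-binding protein, had 16.8, 59.6 and 45.7 in mTERC- tumours, against 90, 203.8 and 77.5 in mTERC+ tumours, without overlap. Its log2 difference was -1.06 (SE 0.53, adjusted p = 0.953 in limma). Gbp2 (Entrez Gene 14469), of the same family, had 190.6, 41.9 and 142.5 in mTERC- tumours, against 115.2, 764.2 and 125.4 in mTERC+ tumours. Its group difference of -0.89 (SE 0.61) came with 1 high mTERC+ tumour, and the other mTERC+ tumours lay inside the mTERC- range. The other Gbp2 probe set gave a difference of -0.05, with 99.9, 186.1 and 139.3 in mTERC- tumours, against 97.7, 279.7 and 103.6 in mTERC+ tumours. Iigp1, of the immunity-related GTPases, had 3242.5, 4024.1 and 3797.3 in mTERC- tumours, against 3245.3, 5727.4 and 3800.3 in mTERC+ tumours.

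The remaining roles showed no called member either. The sensors and transcription factors had a median log2 difference of -0.33, the Isg15 system and other protein modifiers -0.10, and the 2 immunoproteasome subunits -0.36. Irf7, the transcription factor that amplifies type I interferon production, had 433.9, 973.3 and 666.5 in mTERC- tumours, against 675.6, 1740 and 480.9 in mTERC+ tumours. Usp18, which removes Isg15 and damps the type I receptor, had 455.2, 206.5 and 365.5 in mTERC- tumours, against 526.1, 728.7 and 390 in mTERC+ tumours. Both overlapped between the groups, with their highest value in mTERC+ tumour 2. Psmb9, a catalytic subunit of the immunoproteasome, had 697.3, 365.9 and 1196.6 in mTERC- tumours and 930.8, 1538.9 and 1254.2 in mTERC+ tumours (log2 difference -0.82, SE 0.41).

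**Figure D1:**
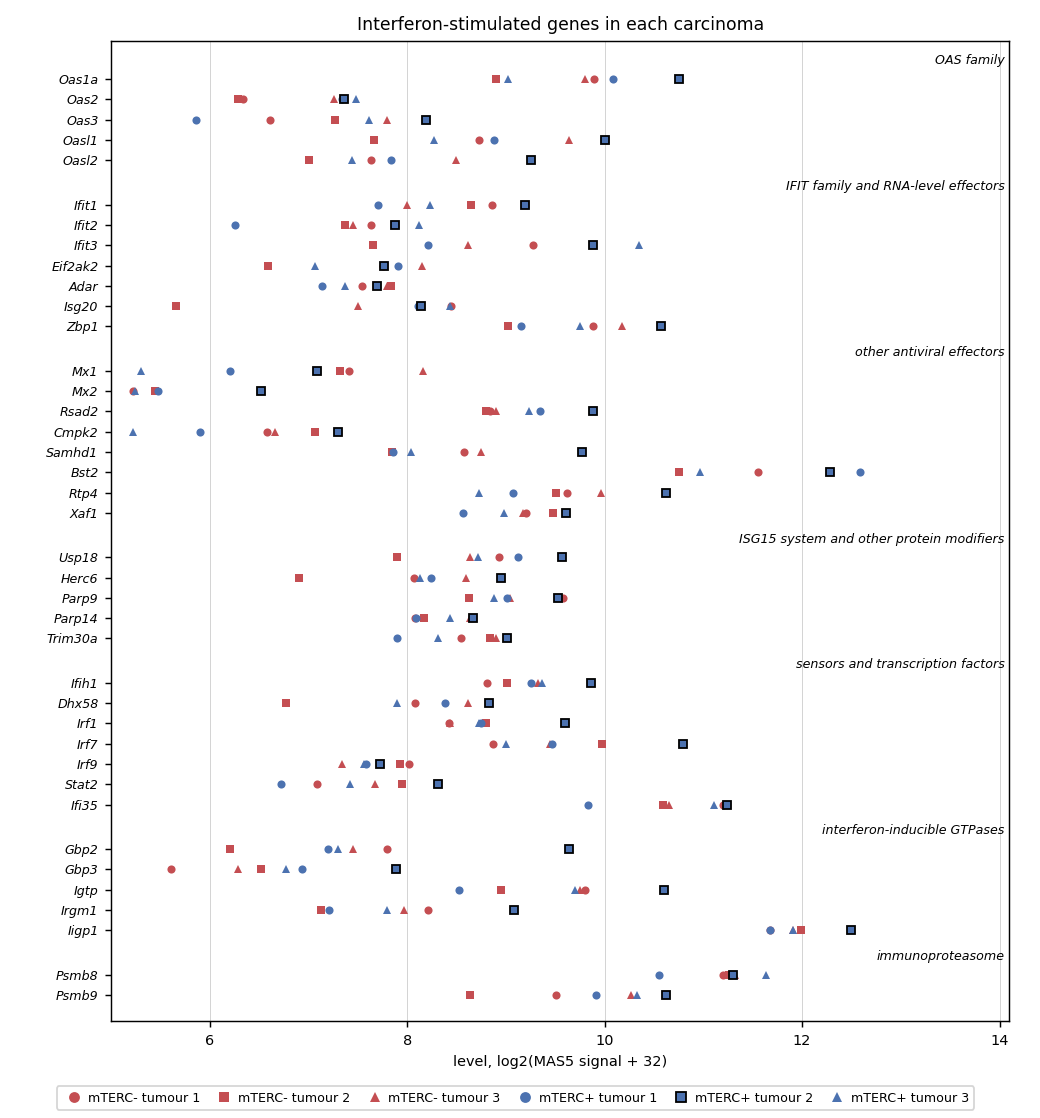
Level of the 39 measured members, as log2 of (MAS5 signal + 32) on the horizontal axis, in mTERC- tumours (red) and mTERC+ tumours (blue), with 1 point per tumour, the shape giving the tumour's number, mTERC+ tumour 2 outlined and members grouped by role. Mx1 is the member with every mTERC- tumour above the mTERC+ tumours, and for Gbp2 mTERC+ tumour 2 stands above the other 5.

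The highest member levels were concentrated in a single mTERC+ tumour. This tumour, mTERC+ tumour 2, was singled out after its values were seen, so what follows is a description with no test. All 38 members lay above their own mean of the 6 tumours in mTERC+ tumour 2, with a median deviation of 0.75 on the log2 scale. Of the 38 members 27 (71.1%) had their highest value in that tumour, against 14.2% of all genes, and 0 had their lowest there. The median deviation was 0.03, -0.31 and 0.09 in mTERC- tumours 1, 2 and 3, and -0.26 and -0.11 in mTERC+ tumours 1 and 3. mTERC- tumour 2, the array with the high Gapdh ratio, held the lowest value of 18 of the 38 members (47.4%), against 22.3% of all genes. Leaving that array out, mTERC+ tumour 2 still held the highest value of 27 of 38 members, against 19.4% of all genes.

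Set against the mean log2 value of the other 2 mTERC+ tumours, mTERC+ tumour 2 was higher for 36 of 38 members (94.7%), beside 52.8% of all genes. The median log2 excess was 0.80, against 0.04 over all genes, and 16 members were at least 2-fold higher (42.1%), beside 7.75% of all genes. Gbp2 was 5.23-fold higher in this tumour by the probe set used. Its other probe set had 97.7 and 103.6 in the other mTERC+ tumours and 279.7 in this tumour. Samhd1, which removes the nucleotides that viruses need, had 838.2 in it and 198.9 and 230.4 in the other mTERC+ tumours, a 3.54-fold excess. The probe set used for Samhd1 in the liver had 77 in this tumour, its lowest value, and 97.3 and 121.8 in the other mTERC+ tumours. Rtp4, a chaperone-like protein with antiviral activity, had 1546 in it and 506.5 and 390.9 in the others, a 3.31-fold excess. Irgm1 and Igtp, both immunity-related GTPases, were 2.99-fold and 2.82-fold higher. By role, the median deviation in mTERC+ tumour 2 was largest for the GTPases, at 1.18, and the OAS family, at 1.01, and lowest for the immunoproteasome, at 0.42.

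**Figure D2:**
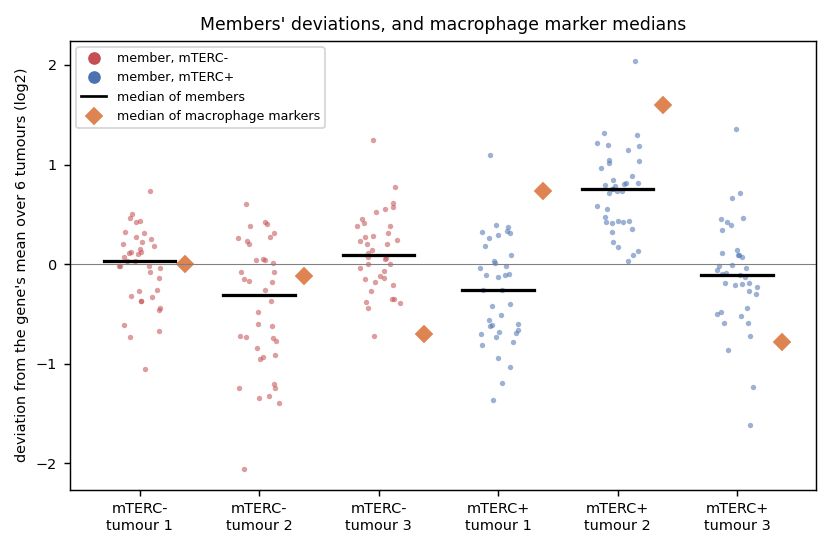
Deviation of each tested member from its own mean over the 6 tumours, in log2 of (signal + 32), for the mTERC- and mTERC+ tumours, with 1 point per member, a bar at their median and a diamond at the median of the 17 macrophage markers. All 38 points of mTERC+ tumour 2 lie above 0, with a median of 0.75, and its macrophage median is 1.60.

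Macrophage markers moved with the same tumour. The 17 tested macrophage and Kupffer cell markers had median deviations of -0.0008, -0.12 and -0.70 in mTERC- tumours 1 to 3, against 0.73, 1.60 and -0.79 in mTERC+ tumours 1 to 3. Their summed signal was 25290, 18423 and 19356 in mTERC- tumours, against 44673, 73924 and 14760 in mTERC+ tumours, and 15 of the 17 had a lower mean in mTERC-. Adgre1, a surface receptor of macrophages, had 283.5, 227 and 192.9 in mTERC- tumours, against 712.1, 1180.9 and 217.4 in mTERC+ tumours. The 2 lists did not run in parallel throughout. mTERC+ tumour 1 had the second-highest macrophage sum, while its summed member signal of 22354 was below those of mTERC- tumours 1 and 3, at 23241 and 23687. mTERC+ tumour 2 had a member sum of 38811. The 8 tested T and NK cell markers summed to 610, 1140 and 514 in mTERC- tumours, against 813, 932 and 425 in mTERC+ tumours. Endothelial, stellate, and B and plasma cell markers also lay above their means in mTERC+ tumour 2, with median deviations of 0.35, 0.40 and 0.46. The median deviation of T and NK cell markers was 0.37 in that tumour and 0.67 in mTERC- tumour 2. That of endothelial markers was larger in mTERC+ tumour 1, at 0.58. Between the genotypes, 11 of 12 endothelial markers had a lower mean in mTERC- tumours, and all 9 neutrophil markers a higher one, with a median log2 difference of 1.58. The neutrophil list held S100a8, the 1 gene of 11980 that passed (limma adjusted p = 0.0246). The part of these cell types in the member levels was not tested, and in bulk RNA fewer cells of a type and less RNA per cell cannot be told apart.

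Other genes of the pathway in the tumours gave no call. Of 57 tested further interferon-induced genes 40 had a lower mean in mTERC- tumours (70.2%), beside 48.6% of all genes, with a median of -0.28 and 0 called. At an unadjusted p below 0.05, 4 passed (7.02%), beside 5.04% of all genes, and 9 did not overlap (15.8%), beside 10.1%. Nlrc5, the activator of class I antigen presentation genes, had 147.5, 225.6 and 133.8 in mTERC- tumours, against 45.8, 54.7 and 42.1 in mTERC+ tumours (log2 difference 1.31, adjusted p = 0.906 in limma). Ifitm1, a membrane protein that hinders virus entry, had 443.5, 354.5 and 391.3 in mTERC- tumours, against 181.4, 114.4 and 194.7 in mTERC+ tumours (log2 difference 1.15, adjusted p = 0.906 in limma). Like Mx1, both were higher in every mTERC- tumour than in any mTERC+ tumour. The other 2 past the unadjusted threshold were lower without overlap. Psme1, a subunit of a proteasome activator, had 3138, 1297 and 1640.6 in mTERC- tumours, against 3785.8, 3240.7 and 3491.6 in mTERC+ tumours (log2 difference -0.88, adjusted p = 0.953 in limma). Tapbp, or tapasin, which helps load peptides on class I molecules, had 2131.5, 1632.4 and 2156.3 in mTERC- tumours, against 3137.3, 3107 and 3191.8 in mTERC+ tumours (log2 difference -0.68, adjusted p = 0.953 in limma). Shisa5, Tor3a, Ube2l6 and Tnfsf10 were also lower without overlap, and Ogfr was higher without overlap, at log2 differences of -0.45, -0.68, -0.67, -0.39 and 0.34. Ccl2, a monocyte chemokine, had 69.1, 79.9 and 32.2 in mTERC- tumours and 234.6, 288 and 115.3 in mTERC+ tumours, a log2 difference of -1.37. The 5 tested receptor subunits and the 4 tested JAK-STAT genes had median log2 differences of -0.09 and 0.00. Of 19 listed interferon ligands 3 passed the level filter, and 0 were called.

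The virus comparison asked how expression of TRF2DBDM changed liver RNA relative to a control virus. Most interferon-stimulated genes had a lower signal in the TRF2DBDM pool than in the GFP pool. Of the 37 members on this array 33 reached the median of an array on 1 or both of the arrays, 32 of them on both and Cmpk2 on the GFP array alone. Of these 33, 29 were lower (87.9%), beside 47.9% of all genes compared, with a median log2 ratio of -0.82 against 0.02 over all genes. A ratio of at least 2-fold lower was seen for 10 of the 33 (30.3%), beside 2.9% of all genes, and of at least 2-fold higher for 0, beside 4.62%. With all 37 members and no level filter, 31 were lower (83.8%), beside 44.3% of all genes, and 10 were at least 2-fold lower (27%), beside 1.86%. There was 1 array of pooled RNA per group, so no difference here has a replicate check and no test was made.

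The sensors and transcription factors held the lowest ratio. Dhx58 (Entrez Gene 80861), the helicase LGP2 that tunes RNA sensing, had a signal of 60.4 in the TRF2DBDM pool, against 427.4 in the GFP pool, a log2 ratio of -2.31. Its other probe sets on this array gave -1.96 and 0.40, so they differ in direction. Ifi35, which interacts with Nmi in cytokine signalling, had 341.2 in the TRF2DBDM pool and 832.5 in the GFP pool (-1.21). Stat2 had 69.5 in the TRF2DBDM pool and 146.9 in the GFP pool (-0.82). Irf7 had 660.9 in the TRF2DBDM pool and 992.6 in the GFP pool (-0.56). Irf1, a factor induced mainly by interferon gamma, had 340.5 in the TRF2DBDM pool and 540.4 in the GFP pool (-0.62). Ifih1, the RNA sensor MDA5, stood apart from its relative Dhx58, at 201.9 in the TRF2DBDM pool and 200.4 in the GFP pool. Of the 7 genes in this role 6 were lower, and the median was -0.62.

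The IFIT and RNA-level effectors had the lowest median of any role, -1.09, with 6 of 6 lower. Isg20 had 54.2 in the TRF2DBDM pool and 318.7 in the GFP pool, a log2 ratio of -2.02. Zbp1, a sensor of left-handed nucleic acid that can trigger cell death, had 251.5 in the TRF2DBDM pool and 782.1 in the GFP pool (-1.52). Adar, which edits adenosine in double-stranded RNA, had 130.5 in the TRF2DBDM pool and 326.8 in the GFP pool (-1.14). Ifit1 had 58.1 in the TRF2DBDM pool and 152.8 in the GFP pool (-1.04), and Ifit3 had 259 in the TRF2DBDM pool and 497.7 in the GFP pool (-0.86). Ifit2, at 7.5 in the TRF2DBDM pool and 4.2 in the GFP pool, was below the array median in both.

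All 5 OAS family genes were lower, with a median log2 ratio of -0.85. Oasl2 (Entrez Gene 23962) had 119.3 in the TRF2DBDM pool and 542.2 in the GFP pool (-1.92). Oasl1, known in mice to restrain translation of Irf7, had 426.9 in the TRF2DBDM pool and 1183.9 in the GFP pool (-1.41). Oas1a had 1011.2 in the TRF2DBDM pool and 1853.7 in the GFP pool (-0.85). Oas2 and Oas3 had log2 ratios of -0.68 and -0.66, so Oasl1 and Oasl2 lay below the other 3.

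The other antiviral effectors were mixed, with 3 of 5 lower. Cmpk2, a mitochondrial nucleotide kinase encoded beside Rsad2, had 43.8 in the TRF2DBDM pool and 177.6 in the GFP pool (-1.47), but its other probe set on this array gave 0.15. Rsad2 had 454.4 in the TRF2DBDM pool and 711.6 in the GFP pool (-0.61), and Rtp4 had 490.6 in the TRF2DBDM pool and 1009.6 in the GFP pool (-0.995). Bst2 was the highest of all 33 ratios, at 2264.8 in the TRF2DBDM pool and 1712.1 in the GFP pool (0.40). Samhd1 had 168.9 in the TRF2DBDM pool and 167.5 in the GFP pool (0.01), and its other probe sets on this array gave 0.96, 0.39 and -0.08. Mx1, at 42.8 in the TRF2DBDM pool and 37.1 in the GFP pool, and Mx2, at 7.5 in the TRF2DBDM pool and 10.2 in the GFP pool, were below the array medians. Mx1, which did not overlap between the tumour groups, thus had no signal above the median in either liver pool.

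The protein modifiers, GTPases and immunoproteasome completed the set. All 4 modifiers compared were lower, with a median of -0.83. Usp18 had 522.9 in the TRF2DBDM pool and 910.4 in the GFP pool (-0.76), and Trim30a, a ubiquitin ligase that restrains inflammatory signalling in mice, had 263.7 in the TRF2DBDM pool and 536.3 in the GFP pool (-0.94). Igtp had 511.7 in the TRF2DBDM pool and 1167.5 in the GFP pool (-1.14). Iigp1 had 789.2 in the TRF2DBDM pool and 776.4 in the GFP pool, unlike the related Igtp and Irgm1, the last at -0.65. Gbp3 was below the array median in both. The immunoproteasome subunit Psmb8 had 629.6 in the TRF2DBDM pool and 1135.8 in the GFP pool (-0.82), and Psmb9 had a log2 ratio of -0.37.

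**Figure D3:**
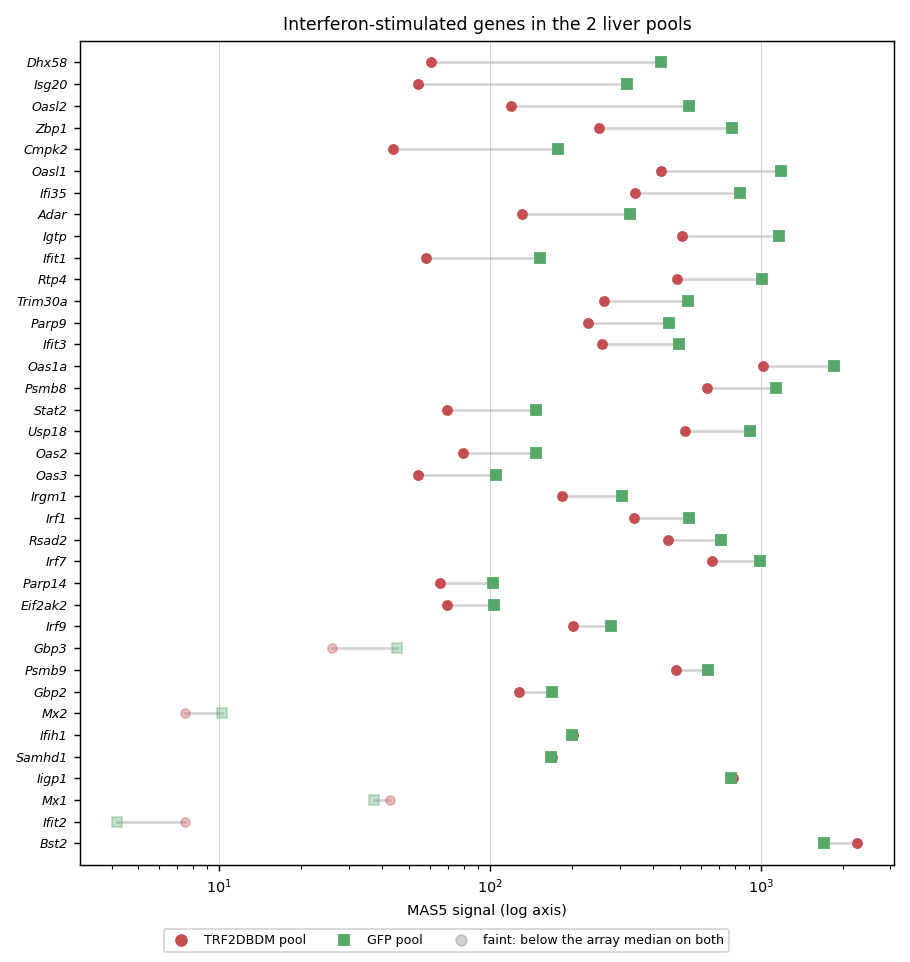
MAS5 signal (log axis) of the 37 members measured in the TRF2DBDM pool (circles) and the GFP pool (squares), ordered by log2 ratio, with 1 array per pool and the 4 members below the array median on both drawn faint. The line between the points is longest for Dhx58, at 60.4 and 427.4, and Bst2 is higher in the TRF2DBDM pool.

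All probe sets of the members were also read on their own. Of 52 on both array types 40 had a lower signal in the TRF2DBDM pool, 15 of them at least 2-fold, and 12 had a higher signal, 0 of them at least 2-fold. The shares over all probe sets were not counted. By gene, with 1 probe set each and no level filter, 44.3% of all genes were lower and 1.86% at least 2-fold lower. Among the 11 members with more than 1 such probe set, 4 had probe sets on both sides of a ratio of 1. For Adar, Ifi35, Cmpk2 and Samhd1 the probe set used in the liver was not the one used in the tumours.

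**Figure D4:**
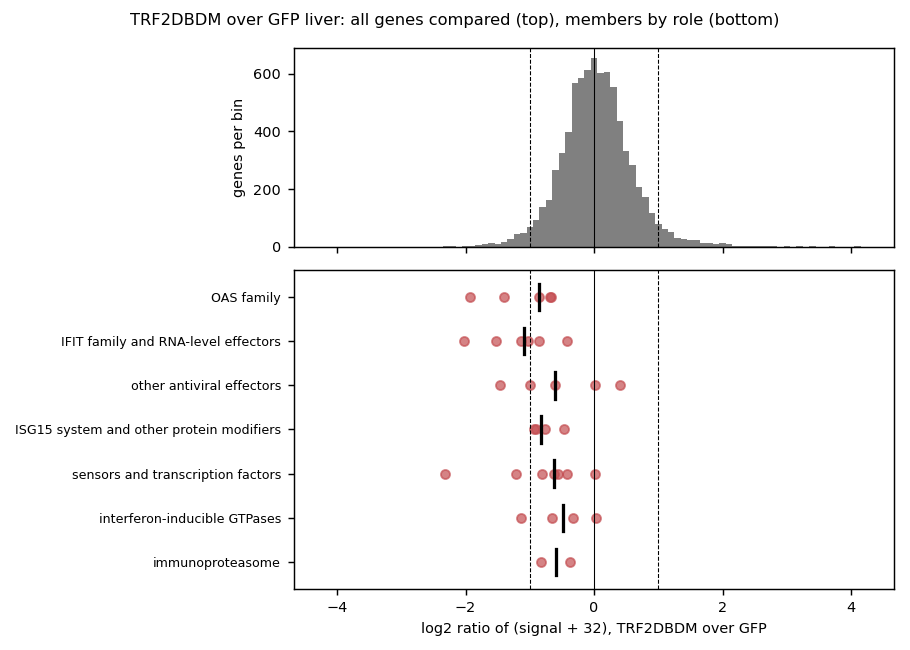
Log2 ratio of (signal + 32), TRF2DBDM over GFP: a histogram of the 7789 genes compared (top) and the 33 members by role (bottom), with each role's median as a vertical bar and dashed lines at 2-fold. The members lie mostly left of 0, and 10 lie beyond the 2-fold line on the lower side.

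Upstream genes of the pathway had median ratios nearer 0 than the members, with a few low ratios among them. Of 19 listed interferon ligands 1 passed the level filter, Ifnz, at 93.4 in the TRF2DBDM pool and 51 in the GFP pool (0.60). The other ligands measured were at low signals in both pools, with Ifnb1 at 32.1 in the TRF2DBDM pool and 39.5 in the GFP pool. The 4 JAK-STAT genes compared had a median log2 ratio of -0.05, within a range of -0.23 to 0.15. Stat2 (-0.82) and Irf9 (-0.42) were counted among the members and not in that list. The 5 receptor subunits had a median of -0.35, with 3 lower and 2 higher. Ifngr1, the ligand-binding chain of the interferon gamma receptor, had 98.6 in the TRF2DBDM pool and 242.5 in the GFP pool (-1.07). Ikbke, a kinase that activates Irf3 and Irf7, had 56.6 in the TRF2DBDM pool and 280.2 in the GFP pool (-1.82). Irf8, a transcription factor of myeloid cells, had a log2 ratio of 0.73.

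Further interferon-induced genes, taken from a wider list, were lower in 27 of 43 cases (62.8%), beside 47.9% of all genes compared, with a median log2 ratio of -0.26. Of these 43, 7 were at least 2-fold lower (16.3%), beside 2.9% of all genes, and 1 at least 2-fold higher (2.33%), beside 4.62%. Some of the 43 passed the level filter only on the array where they were higher. Among the 7, Oas1c passed on the GFP array alone, at 6.3 in the TRF2DBDM pool and 54.4 in the GFP pool. The 1 higher gene, Ms4a4c, passed on the TRF2DBDM array alone, at 114 in the TRF2DBDM pool and 40.8 in the GFP pool. Irgm2, a GTPase related to Irgm1, had 127.1 in the TRF2DBDM pool and 454.7 in the GFP pool (-1.61). Uba7, the enzyme that activates Isg15, had 112.2 in the TRF2DBDM pool and 348.2 in the GFP pool (-1.40). Psmb10, the remaining catalytic subunit of the immunoproteasome, had 543.8 in the TRF2DBDM pool and 1443.6 in the GFP pool (-1.36). The chemokines were split: Cxcl10 had 196.7 in the TRF2DBDM pool and 442.2 in the GFP pool (-1.05), whereas Cxcl9, which binds the same receptor, had 262.2 in the TRF2DBDM pool and 89.2 in the GFP pool (1.28). Ifitm1 was also higher, at 564.1 in the TRF2DBDM pool and 288.9 in the GFP pool (0.89).

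Markers of most cell types, macrophages among them, were mostly higher where the members were lower, and neutrophil markers were mostly lower. Of 13 macrophage and Kupffer cell markers compared 10 were higher in the TRF2DBDM pool and 3 lower (23.1%), beside 47.9% of all genes lower. Their median log2 ratio was 0.92 and their summed signal 3371 in the TRF2DBDM pool and 3162 in the GFP pool. Of the 10, Cd5l and Aif1 passed the level filter on the TRF2DBDM array alone. Cd5l had 96.9 in the TRF2DBDM pool and 40.4 in the GFP pool, and Aif1 had 53.4 and 7. Adgre1 had 153.1 in the TRF2DBDM pool and 50.7 in the GFP pool. The 3 lower markers were Cd14, at 352.6 in the TRF2DBDM pool and 1261 in the GFP pool (-1.75), Cd68, at 319.6 in the TRF2DBDM pool and 798.9 in the GFP pool (-1.24), and Mpeg1 (-0.63). The defining markers of Kupffer cells were low in both, with Clec4f at 5.5 in the TRF2DBDM pool and 6.4 in the GFP pool and Vsig4 at 26.8 in the TRF2DBDM pool and 30.3 in the GFP pool. Of 9 neutrophil markers 6 were lower (66.7%), beside 47.9% of all genes compared. Their median log2 ratio was -0.57, with a summed signal of 12594 in the TRF2DBDM pool and 13862 in the GFP pool. Csf3r, 1 of the 6, passed the level filter on the GFP array alone, at 18.7 in the TRF2DBDM pool and 67.9 in the GFP pool. Of 11 hepatocyte markers 10 were higher, with a median of 0.65. Also higher were 3 of 3 dendritic cell, 5 of 6 T and NK cell, 7 of 8 stellate and 8 of 11 endothelial markers. Their median log2 ratios were 0.82, 0.25, 0.24 and 0.09. Some of these passed the level filter on the TRF2DBDM array alone, as Flt3 did, at 94.3 in the TRF2DBDM pool and 13.8 in the GFP pool. Of 2 B and plasma cell markers 1 was higher. The 33 members summed to 11623 in the TRF2DBDM pool and 19410 in the GFP pool. The part of cell composition in the member ratios was not tested.

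Finally, the level of each member, by its probe set chosen for the liver data, was ranked within its own array among the 22626 probe sets that both array types carry. The tables were scaled separately, so these percentiles are given side by side and not tested. The median percentile of the 37 members was 79.7 in the TRF2DBDM pool and 89.2 in the GFP pool. It was 78.0, 68.6 and 78.8 in mTERC- tumours, and 72.9, 85.8 and 76.0 in mTERC+ tumours. In the TRF2DBDM pool 10 members were in the top 10% of probe sets, against 17 in the GFP pool. The count was 6, 4 and 6 in mTERC- tumours, and 5, 14 and 6 in mTERC+ tumours. By the median percentile and the top 10% count, the order of the highest arrays was the GFP pool, mTERC+ tumour 2 and the TRF2DBDM pool. Members above the median of their array did not follow that order, at 32 in the TRF2DBDM pool and 33 in the GFP pool, and at 32, 27 and 34 in mTERC- tumours and 29, 34 and 33 in mTERC+ tumours.

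Members with and without the ISRE core overlapped in their ratios. Over all members with a liver value and a promoter entry, without the level filter, the median log2 ratio was -0.66 in the 14 with the core (range -1.14 to 0.40) and -0.82 in the 13 without it (range -2.02 to 0.13). The median log2 excess of mTERC+ tumour 2 was 1.12 in 14 members with the core and 0.77 in 15 without it, and the ranges overlapped. Isg20 and Oasl2 held no ISRE core in this window, and their log2 ratios of -2.02 and -1.92 were below those of Igtp, Ifit1 and Oas1a, whose cores are printed above.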

How the data were processed

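Total RNA of mouse liver and liver tumours was labelled from 6 microg per array and hybridized to 2 types of Affymetrix array, per the labels' protocols. Per the submitters' processing notes, the deposited values are linear MAS5 signal intensities. No source used here gives the version of MAS5 or its scaling target. The trimmed mean of the signals was 150 on each array, so the authors' scaling was kept. An array holds no molecule count, and the number of arrays limits the precision. The series design gives 3 mice per group, with individual tumours hybridized.

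Probe sets with a single gene symbol were used, taking for each gene the probe set of highest mean in that data set. All 39 measured members matched RefSeq by symbol and Entrez Gene ID. The level filter kept genes that reached the median over all probe sets (by the mean of the tumours, or on at least 1 of the liver arrays). That left 11980 genes in the tumours and 7789 in the livers. Tumour groups were fitted over all genes on log2(signal + 32) with limma 3.58.1 (lmFit, eBayes with trend) in R 4.3.3, two-sided, with Benjamini-Hochberg adjustment at 0.05. The liver pair had no test. The code was tested on simulated data.

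The members and lists were chosen with earlier results of these data known. Members given array by array are those with the largest differences or ratios, those without overlap, and at least 1 of each role. From each pathway list up to 6 genes could be named, and from each cell type list up to 4 and the defining markers. Alternatives covered normalization, pseudocount, level filter, probe set choice, a Y-linked covariate, array weights, the variance trend and each tumour left out. A block for the 18S control was added after the data were seen. Promoter sequences came from RefSeq GRCm38.p6.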

Additional observations from a re-analysis of the deposited data

How the results depend on the processing

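No member was called between the tumour groups in limma under any of the 18 alternatives, and the lowest adjusted p of a member was 0.280, with the Y-linked covariate. The count of called members was thus 0 to 0 with each tumour left out, and the median log2 difference then ranged from -0.49 without mTERC+ tumour 1 to 0.10 without mTERC+ tumour 2. It was -0.46 with the Y-linked covariate and -0.13 with the block for the 18S control, under which 20 of 38 members were lower. These medians moved by less than the spread between tumours, an SD of 0.417. That SD is larger than the main median of -0.16 is from 0, so this measure cannot show that the direction was stable. Without mTERC+ tumour 2 the median changed sign. Of the 38 tested members 20 changed sign in at least 1 setting and 18 kept it.

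In the liver pair the median log2 ratio was -0.93 after median centring, which moved the median of all genes to -0.09, and -0.68 with no level filter, over 37 members. The other alternatives gave -0.73 to -0.88. The count of members at least 2-fold lower was 9 to 13 over the alternatives, beside 1.84% to 5.59% of all genes. Ifit1 with a pseudocount of 64 and Cmpk2 with the mean of its probe sets were no longer at least 2-fold lower. No member that was at least 2-fold lower in the main setting changed sign. Of all 33 members 3 changed sign, Ifih1, Iigp1 and Samhd1, all after median centring. In an alternative added after the data were seen, the 33 members with the same probe set in both data sets had median percentiles of 79.7 in the TRF2DBDM pool and 89.8 in the GFP pool. In the tumours these were 79.1, 69.1 and 78.9 for mTERC-, and 74.6, 87.9 and 77.7 for mTERC+. By these medians mTERC- tumours 1 and 3 lay close to the TRF2DBDM pool, and mTERC+ tumour 2 close to the GFP pool. No paired analysis was possible because the labels give the tumours no shared replicate numbers and each virus had 1 liver array. With 3 tumours per group and 1 liver array per virus, the number of arrays limits what could be detected.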
